A study of Mus musculus with 4 samples.

Results

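The annexins are a family of calcium-dependent membrane-binding proteins. Their genes were followed here across 4 pools of mouse liver RNA, measured with Affymetrix expression arrays. 10 annexin genes were considered (Anxa1 to Anxa8, Anxa11 and Anxa13). A gene was read from probe sets annotated with its symbol alone, using the one whose 4-array mean was highest. This gave values for 9 of the 10 annexins, out of 18194 genes named in the same way. Anxa11, which encodes an annexin that links RNA granules to lysosomes, is not analysed here, because its probe set is also annotated with 2 predicted genes. The pools came from mice at 10 months of age that had been given diethylnitrosamine (DEN) and a diet with 0.2% cholic acid (CA), DEN and control diet, CA diet without DEN, or control diet without DEN. DEN is a chemical carcinogen that initiates liver tumours in mice, and CA is a primary bile acid. Each pool held livers of 3 to 5 mice and was measured on 1 array. The labels give neither strain, sex, DEN dose nor the share of tumour tissue in a pool.

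An annexin binds acidic phospholipids at the inner face of a membrane when calcium rises, through a conserved core, while a variable amino-terminal tail binds partners such as S100 proteins. Annexins take part in vesicle traffic, exocytosis and the resealing of torn membranes, and some of them act outside the cell on inflammation and coagulation. In the liver they are made by hepatocytes, bile duct cells, macrophages, endothelial cells and stellate cells in differing proportions, and several have been studied as proteins that are abundant in liver tumours.

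With 1 array per group there was no replicate, so no test was made, and differences between mice cannot be told apart from treatment effects. Values are log2 levels, and a difference of 1 is 2-fold, the size from which genes were counted. A gene was called expressed from a mean level of 4.855 on, the median over all probe sets. 11651 genes, 8 of them annexins, met this limit, and Anxa8 did not. As a technical yardstick, the largest difference among 18 hybridization control probe sets was 0.184 to 0.370, depending on which of the 5 comparisons of 2 arrays was taken. The liver label was borne out by Alb, encoding serum albumin, at 14.7 to 14.8 on the 4 arrays. Afp, the oncofetal alpha-fetoprotein gene, stood at 12.17 and 12.65 in the DEN pools on CA and control diet, against 4.10 and 4.77 in the pools without DEN on CA and control diet. Levels of different genes are not compared, because probe sets differ in how they respond.

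5 of the 9 measured annexins were at least 2-fold higher in the DEN pool on control diet than in the control diet pool without DEN. They were Anxa1, Anxa2, Anxa3, Anxa4 and Anxa5. None of the 9 was lower by that much. Among all expressed genes, 5.12% were higher and 0.901% lower by 2-fold or more in this comparison. The median log2 difference was 1.21 over the 9 annexins and 0.04 over all expressed genes. On the CA diet, DEN went with 4 annexins at least 2-fold higher (Anxa1, Anxa2, Anxa5 and Anxa13) and none lower, beside 4.75% and 1.75% of expressed genes. The median there was 0.93 over the annexins and 0.00 over all expressed genes. These DEN comparisons share no array. The annexins were chosen with earlier results of these data known, so their counts describe the family and are no independent support.

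**Figure D1:**
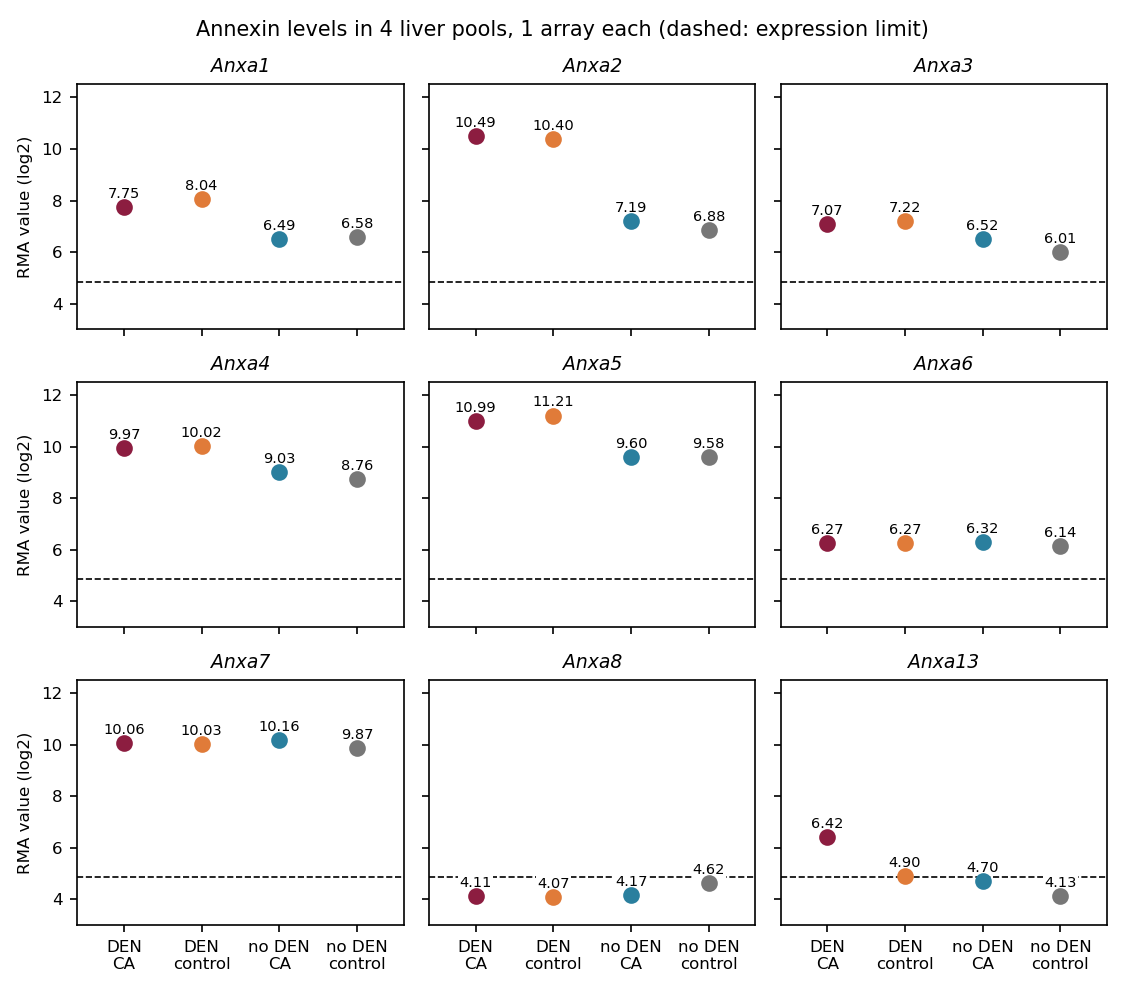
Level (RMA value, log2) of each measured annexin in each of the 4 pools, 1 point for 1 array, with the DEN pools to the left of the pools without DEN and the expression limit of 4.855 as a dashed line. Anxa1 to Anxa5 have both DEN points above both points without DEN, Anxa6 and Anxa7 vary by 0.18 and 0.29, and Anxa13 is clearly above the limit only in the DEN pool on CA diet (6.42).

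Anxa2 had the largest difference of the family. It encodes annexin A2, which forms a complex with S100A10 at the cell surface, where it binds plasminogen and its activator. Its levels were 10.49 in the DEN pool on CA diet and 10.40 in the DEN pool on control diet, against 7.19 in the CA diet pool and 6.88 in the control diet pool without DEN. Both DEN pools thus lay more than 3 log2 units above both others. DEN went with an 11.5-fold higher level on control diet (log2 difference 3.52) and a 9.88-fold higher level on CA diet (3.30). Only 39 of 11651 expressed genes, Anxa2 included, were as far or farther up on control diet, and 51 on CA diet. Between the diets Anxa2 differed by 0.10 after DEN, within the largest control probe set difference of 0.267, and by 0.31 without DEN, about as much as the largest such difference of 0.305.

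Anxa5 and Anxa1 followed a like pattern with smaller steps. Anxa5 encodes the annexin that binds phosphatidylserine and is widely used to label dying cells. It stood at 10.99 and 11.21 in the DEN pools on CA and control diet, against 9.60 and 9.58 in the pools without DEN on CA and control diet. The DEN pools were 2.63-fold higher on CA diet and 3.09-fold higher on control diet. Without DEN the CA pool differed from the control pool by 0.01. Anxa1 encodes annexin A1, a glucocorticoid-induced protein that limits inflammation through formyl peptide receptors. Its levels were 7.75 and 8.04 in the DEN pools on CA and control diet, against 6.49 and 6.58 without DEN. This was 2.39-fold higher with DEN on CA diet and 2.76-fold higher on control diet. In both genes the DEN pool on CA diet lay below the DEN pool on control diet, by 0.22 for Anxa5 and 0.30 for Anxa1. The first of these is within the control probe set differences and the second just beyond them (0.267).

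Anxa4 encodes an annexin found at the membranes of secretory and duct epithelia, and Anxa3 an annexin described as an inhibitor of phospholipase A2. Anxa4 had levels of 9.97 and 10.02 in the DEN pools on CA and control diet, against 9.03 and 8.76 without DEN. It was 2.41-fold higher with DEN on control diet and 1.91-fold higher on CA diet, just short of 2-fold. Anxa3 had levels of 7.07 and 7.22 in the DEN pools on CA and control diet, against 6.52 and 6.01 without DEN. DEN went with a 2.31-fold higher level on control diet and a 1.47-fold higher one on CA diet. For both genes every DEN pool was above every pool without DEN, and the lowest level was that of the control diet pool. The CA pool without DEN was above that control pool by 0.51 for Anxa3 and 0.28 for Anxa4.

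Anxa6, Anxa7 and Anxa8 had differences of less than 2-fold in every comparison. Anxa6 encodes the largest annexin, with a duplicated core, which organises membrane domains and endosome traffic. Its levels were 6.27 and 6.27 in the DEN pools on CA and control diet, against 6.32 and 6.14 without DEN. Anxa7, or synexin, promotes membrane fusion during secretion. It stood at 10.06 and 10.03 in the DEN pools on CA and control diet, against 10.16 and 9.87 without DEN. All 4 pools lay within 0.29 of each other for Anxa7 and within 0.18 for Anxa6. With the median of expressed genes set equal on all arrays (centring), the small DEN difference of Anxa6 on control diet turned from 0.13 to -0.03. Anxa8, an annexin of stratified epithelia, was under the expression limit on all 4 arrays. Its values were 4.11 and 4.07 in the DEN pools on CA and control diet, against 4.17 and 4.62 without DEN, and such values lie close to background.

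**Figure D2:**
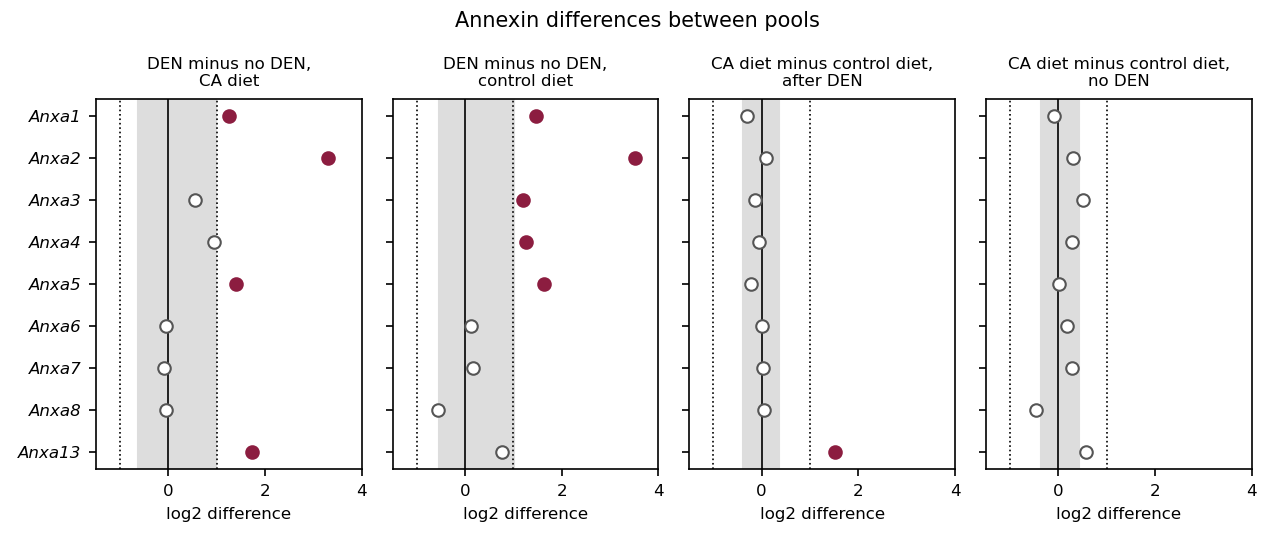
Log2 difference of each measured annexin in 4 comparisons of 2 pools, with filled points from 2-fold on (dotted lines at -1 and 1) and a grey band from the 5th to the 95th percentile of all expressed genes. Anxa2 lies far to the right in both DEN comparisons (3.30 and 3.52), and Anxa13 is the only filled point in a diet comparison (1.52).

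Anxa13 was the annexin with a difference of at least 2-fold between the diets. It encodes an annexin of intestinal and kidney epithelium that is anchored by a fatty acid and takes part in transport to the apical membrane. Its levels were 6.42 in the DEN pool on CA diet and 4.90 in the DEN pool on control diet, against 4.70 in the CA diet pool and 4.13 in the control diet pool without DEN. The DEN pool on CA diet was 2.87-fold higher than the DEN pool on control diet (log2 difference 1.52). In that comparison 1 of 9 annexins was at least 2-fold higher and none lower, beside 0.266% and 0.472% of all expressed genes. 6 of 11651 expressed genes, Anxa13 included, were as far or farther up. The Anxa13 mean of 5.04 passed the expression limit only through the DEN pool on CA diet, where it was highest. This rank therefore describes Anxa13 and is no independent support. On CA diet the DEN pool was at least 2.96-fold higher than the pool without DEN, with the low level raised to 4.855. On control diet its DEN difference was 0.77 as measured and 0.05 with the low level raised. Both pools without DEN were under the expression limit.

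Without DEN, no annexin was at least 2-fold higher or lower on CA diet than on control diet, where 0.661% of expressed genes were higher and 0.592% lower by that much. The 9 differences ran between -0.46 for Anxa8 and 0.57 for Anxa13, both of which start from levels under the limit. Anxa3 followed at 0.51, and 431 expressed genes were as far up. The median over the annexins was 0.28 without DEN and 0.00 after DEN, against 0.01 and -0.02 over all expressed genes. The diet effect after DEN minus that without DEN was 0.95 for Anxa13, 0.50 for Anxa8 and -0.65 for Anxa3. For the other 6 annexins it lay between -0.33 and -0.18. With the levels under the limit raised to it, the value for Anxa13 was 1.52 and that for Anxa8 0.00. No test of these differences was possible.

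With both treatments against neither, 6 of 9 annexins passed 2-fold upwards and none downwards, beside 5.97% and 2.2% of expressed genes. Anxa2 differed by 3.62, Anxa13 by 2.29 (1.56 with the low level raised), Anxa5 by 1.41, Anxa4 by 1.21, Anxa1 by 1.17 and Anxa3 by 1.06. Anxa3 was the closest to 2-fold and stood at 0.94 with centred arrays. That centring moved the median of all expressed genes by -0.16 for DEN on control diet and by -0.12 for both treatments. The split of all expressed genes into those higher and those lower by 2-fold or more was 596 and 105 as deposited and 455 and 192 with centring for DEN on control diet. For both treatments it was 696 and 256 as deposited and 593 and 347 with centring. On control diet DEN went with the same number of annexins at least 2-fold higher, 5, under that centring.

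Probe sets of 1 gene allowed a check within the arrays. The 9 annexins had 20 probe sets of 1 symbol, and 6 annexins had more than 1. Anxa4 was read by 3 probe sets above the limit, and their DEN differences were 1.27, 1.5 and 1.43 on control diet and 0.93, 1.24 and 0.91 on CA diet. All 3 placed both DEN pools above both pools without DEN. The 2 further probe sets of Anxa2 had means of 4.55 and 2.34, under the limit. They differed by 0.41 and -0.11 for DEN on control diet and by 1.11 and 0.13 on CA diet. The further probe set of Anxa1, with a mean of 3.71, differed by 0.04 and -0.0039 in the same comparisons. Averaging over probe sets therefore lowered the DEN difference on control diet to 1.27 for Anxa2 and to 0.75 for Anxa1. No probe set of Anxa6 or Anxa7 reached 2-fold in a DEN comparison. Anxa3, Anxa5 and Anxa13 were each read by 1 probe set.

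**Figure D3:**
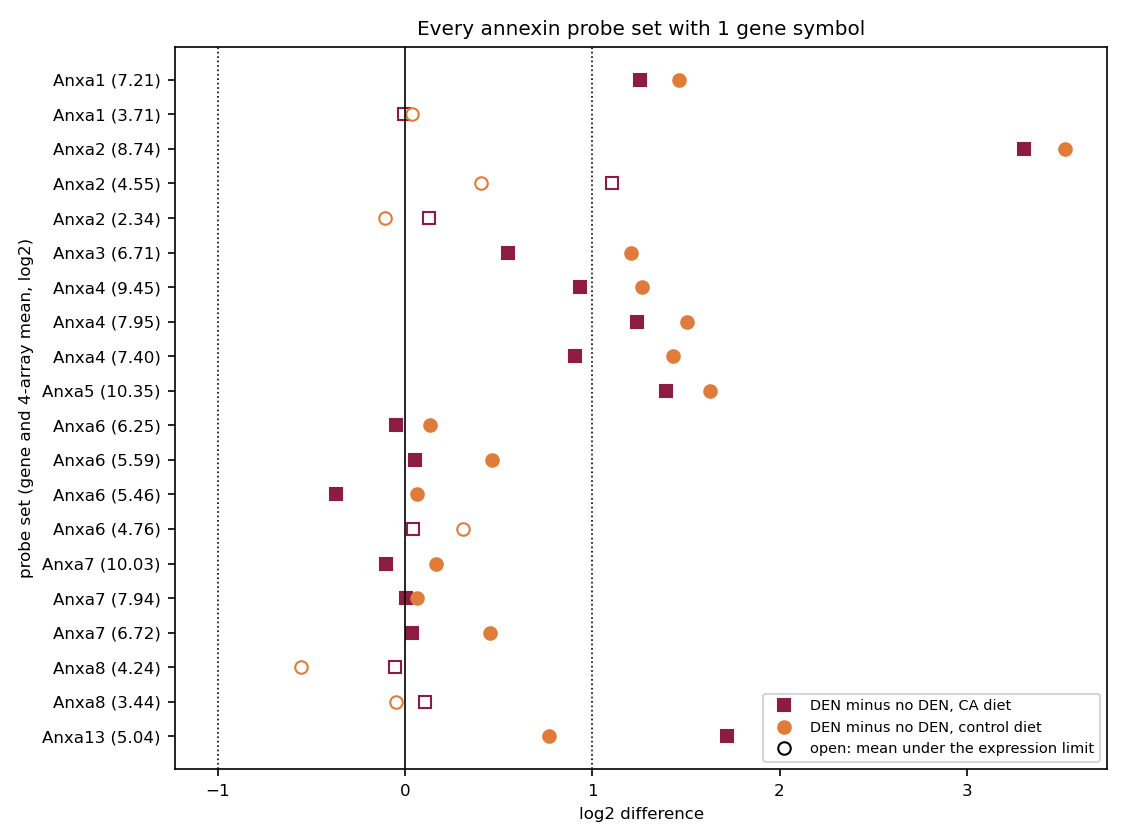
Log2 difference for DEN on CA diet (squares) and on control diet (circles) for each of the 20 annexin probe sets with 1 symbol, each row with its gene and 4-array mean (log2), open where that mean is under 4.855. The 3 probe sets of Anxa4 lie close together (0.91 to 1.5), while the further ones of Anxa1 and Anxa2 are open symbols far to the left of the one used.

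Genes of annexin partners and related membrane proteins were listed separately, and 22 of 25 were measured, 18 of them expressed. For DEN on control diet 5 of the 22, including S100a4, which was not expressed, passed 2-fold upwards, and on CA diet 4 did. Beside these stand 5.12% and 4.75% of expressed genes. None of the 22 passed 2-fold downwards, beside 0.901% and 1.75%. With levels under the limit raised to 4.855, a setting chosen after the data were seen, these counts were 3 and 2. Their median differences were 0.19 and 0.14, against 1.21 and 0.93 for the annexins. S100a10, the partner of annexin A2, did not share its size of difference. Its levels were 11.21 in the DEN pool on CA diet and 11.19 in the DEN pool on control diet, against 10.49 in the CA diet pool and 11.10 in the control diet pool. The CA diet pool without DEN was the low one. The DEN difference of S100a10 was thus 0.72 on CA diet and 0.09 on control diet, and another probe set of high level gave 0.68 and 0.30.

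S100a6, a calcium sensor that binds several annexins, had the largest difference among the partner genes. It stood at 6.45 and 6.77 in the DEN pools on CA and control diet, against 4.47 and 3.52 without DEN, which are under the limit. With these raised to 4.855, it was at least 3.01-fold higher with DEN on CA diet and at least 3.77-fold higher on control diet. Plat, encoding the tissue plasminogen activator that annexin A2 binds, stood at 5.77 and 5.94 in the DEN pools on CA and control diet, against 4.25 and 4.44 without DEN. This was at least 1.89-fold higher on CA diet and at least 2.12-fold higher on control diet, with the low levels raised. Plg, the plasminogen gene, stood between 13.46 and 13.52 in all 4 pools. Ahnak, a large scaffold protein that binds the annexin A2 complex, differed by 0.41 on CA diet and 1.07 on control diet, while another of its probe sets above the limit differed by 0.01 and -0.02. Fpr2, a formyl peptide receptor for annexin A1, differed by 0.10 and 0.08 for DEN on CA and control diet. Chmp4c, of the membrane remodelling machinery ESCRT-III, stood at 5.82 and 5.65 in the DEN pools on CA and control diet, against 4.69 and 4.22 without DEN. With the low levels raised it was at least 1.95-fold and at least 1.73-fold higher on CA and control diet, both short of 2-fold. S100a4, a further S100 gene, had a mean under the limit, and its differences of 0.78 and 1.43 for DEN on CA and control diet were 0.00 and 0.42 with the low levels raised. Cpne8, a copine that binds membranes with calcium, differed by 1.05 on CA diet and 0.84 on control diet, and 2 other probe sets of it above the limit differed by 0.84 and 1.81 on CA diet and by 0.76 and 1.01 on control diet. In the diet comparisons 0 of the 22 partner genes reached 2-fold in either direction, where the shares of expressed genes higher and lower were only 0.266% and 0.472% after DEN and 0.661% and 0.592% without DEN.

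**Figure D4:**
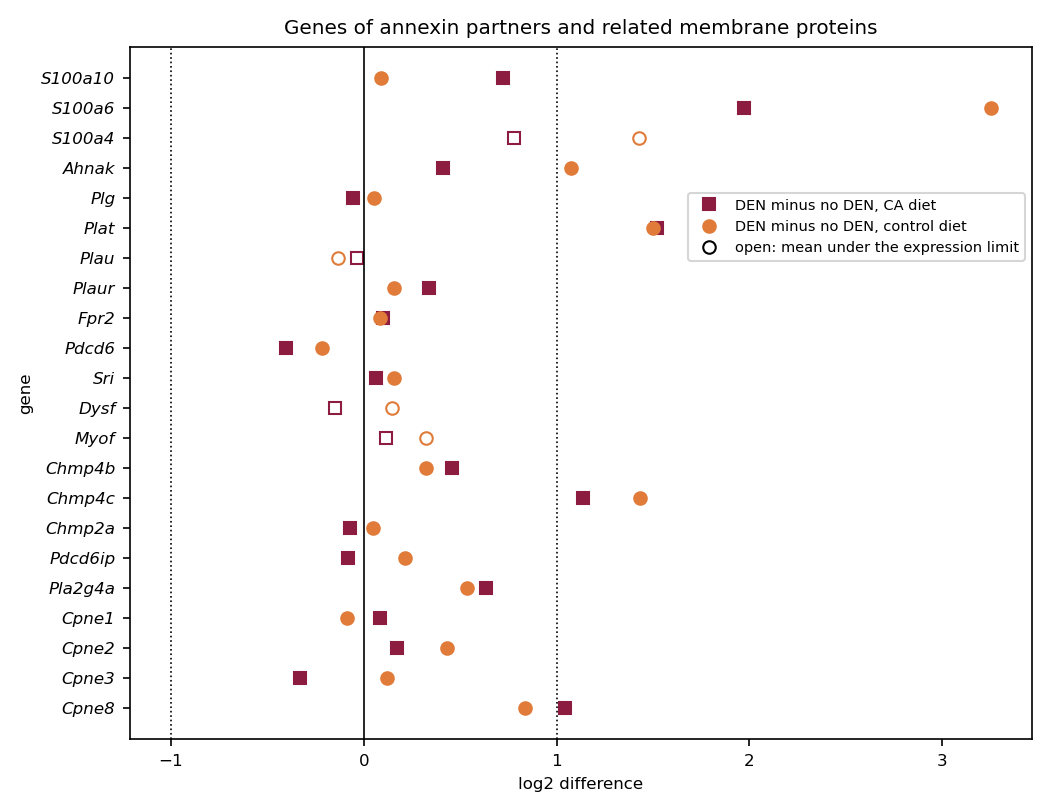
Log2 difference for DEN on CA diet (squares) and on control diet (circles) for the 22 measured partner and related genes, as measured, open where the 4-array mean is under 4.855. S100a6 is farthest to the right (1.97 and 3.25, or 1.59 and 1.91 with its low levels raised to the limit), S100a10 lies left of 1 in both comparisons, and Plg is near 0.

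The genes with the profile nearest to an annexin were found by Euclidean distance between levels centred over the 4 arrays, a measure that rests on 4 values. For Anxa2 the nearest of all expressed genes outside the family were Col4a3, a basement membrane collagen gene (distance 0.12), Fgl2, encoding a fibrinogen-like protein (0.12), and Chka, choline kinase alpha (0.14). For Anxa13 they were Cybb, encoding the catalytic subunit of the phagocyte oxidase (0.36), Zbp1, a sensor of nucleic acids (0.43), and Niban1 (0.43). Cybb had levels of 9.22 and 7.94 in the DEN pools on CA and control diet, against 7.34 and 6.72 without DEN. For Anxa4 the nearest was Bmp4, a growth factor gene (0.03), for Anxa5 Psph, an enzyme of serine synthesis (0.07), for Anxa3 Pclaf, a gene of DNA replication (0.08), and for Anxa1 the kinase gene Tnik (0.10). All distances used levels as measured, also those under the expression limit. In the pools without DEN on CA and control diet, Col4a3 (3.98 and 3.51) and Tnik (4.53 and 4.59) were under it. Fgl2 (4.80) and Bmp4 (4.825) were under it in the control diet pool without DEN. Within the family, Anxa6 and Anxa7 were the closest pair (0.08), followed by Anxa1 and Anxa5 (0.18) and by Anxa3 and Anxa4 (0.28). Levels were not scaled, so genes that hardly vary, such as Anxa6 and Anxa7, come out close whatever their pattern. Anxa2 was at least 1.93 away from every other expressed annexin. That distance includes the larger size of its differences and does not show a different pattern.

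Bulk liver RNA does not tell more cells of a type from more RNA per cell, so markers of cell types that make annexins are given beside these results. The 7 measured hepatocyte markers had mean levels of 13.36 and 13.57 in the DEN pools on CA and control diet, against 13.78 and 13.72 without DEN. Their median DEN difference was -0.48 on CA diet and -0.12 on control diet. 1 of the 7 was at least 2-fold lower with DEN on CA diet and none on control diet, beside 1.75% and 0.901% of expressed genes. This marker was Tat, an amino acid catabolic enzyme gene, which differed by -1.65 and -0.45. Cyp2e1, a cytochrome gene, differed by -0.60 and -0.43, Cps1, of the urea cycle, by -0.48 and -0.31, and Hnf4a by -0.48 and -0.12. Apoa1 and Alb were slightly higher with DEN, by 0.18 and 0.23 and by 0.08 and 0.04. Ttr differed by 0.01 and -0.05. All 11 macrophage markers were expressed, and their mean level was 8.63 and 8.06 in the DEN pools on CA and control diet, against 8.16 and 7.52 without DEN. They thus differed with the diet as well as with DEN, and 1 of 11 was at least 2-fold higher with DEN on either diet. The median DEN difference over these 11 was 0.40 on CA diet and 0.63 on control diet. The 11 markers of stellate cells and fibroblasts had mean levels of 7.86 and 7.94 with DEN, against 7.33 and 7.21 without. As measured, 2 were at least 2-fold higher with DEN on CA diet and 4 on control diet. The median DEN difference over this list was 0.51 on CA diet and 0.64 on control diet. Among the 11, Acta2 differed by 2.15 on CA diet and 1.94 on control diet, Col3a1 by 1.22 and 1.94, and Col1a2 by 0.91 and 1.77. Col1a1 differed by 0.51 and 1.03. With its low level raised to the limit, the control diet value was 0.73, short of 2-fold. Lower with DEN on both diets were Lrat and Dcn. Lrat, a vitamin A storage enzyme gene of stellate cells, differed by -0.39 on CA diet and -0.41 on control diet. Dcn, decorin, differed by -0.22 and -0.09, and Des by 0.03 and -0.04. The 8 endothelial markers had mean levels of 7.31 and 7.15 with DEN, against 6.74 and 6.68 without. Of these 8, 1 was at least 2-fold higher with DEN on either diet. The median DEN difference over the 8 was 0.545 on CA diet and 0.357 on control diet. The 10 measured cholangiocyte markers, 5 of them expressed, had mean levels of 5.89 and 5.74 with DEN, against 4.88 and 4.72 without. Their median DEN difference was 0.17 on CA diet and 0.07 on control diet. Of these 10, Sox9 and Tspan8 were at least 2-fold higher with DEN on either diet. Tspan8 stood at 11.75 and 11.38 with DEN, against 3.92 and 3.69 without, and weighs heavily in the means. The duct keratin gene Krt7 was under the limit on every array, and Krt19 reached at most 4.94. The 8 measured neutrophil markers, 3 of them expressed, had mean levels of 5.26 and 5.11 with DEN, against 4.87 and 4.73 without. Their median DEN difference was 0.00 on CA diet and -0.09 on control diet. 2 of them (S100a8 and S100a9) were at least 2-fold higher with DEN on either diet, and the others were not. The counts of higher markers stand beside the 4.75% and 5.12% of all expressed genes higher with DEN on CA and control diet. Over all expressed genes the median DEN difference was 0.00 on CA diet and 0.04 on control diet. The 2 listed tumour markers, Afp and Gpc3, had a median DEN difference of 6.69 on CA diet and 6.77 on control diet, as measured. Gpc3 stood at 9.73 and 9.80 with DEN, against 4.41 and 4.14 without, which are under the limit. The part of these cell types, or of tumour tissue, in the annexin differences was not tested.

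Beside Anxa13, 9 markers of intestinal epithelium were measured, 6 of them expressed. The 9 had mean levels of 6.26 and 6.01 in the DEN pools on CA and control diet, against 5.11 and 5.15 without DEN. Their median DEN difference was 0.02 on CA diet and -0.06 on control diet. 3 of 9 (Vil1, Krt20 and Cdh17) were at least 2-fold higher with DEN on either diet. Beside this stand 4.75% of all expressed genes on CA diet and 5.12% on control diet. These 3 markers were under the expression limit in both pools without DEN. With the low levels raised to the limit, Vil1 differed by 2.75 on CA diet and 1.06 on control diet. Krt20 then differed by 2.26 and 1.45, and Cdh17 by 2.33 and 3.39. Vil1, encoding the villin of brush borders, stood at 7.61 and 5.92 in the DEN pools on CA and control diet, against 4.34 and 4.41 without DEN. Its difference between the diets after DEN was 1.69, next to 1.52 for Anxa13. Krt20, a keratin gene of intestinal epithelium, stood at 7.11 and 6.31 with DEN, against 2.87 and 3.29 without DEN, a diet difference of 0.80 after DEN. Cdh17, liver-intestine cadherin, went the other way, with 7.19 in the DEN pool on CA diet and 8.25 in the DEN pool on control diet. Lgals4, galectin 4, had DEN differences of -0.67 on CA diet and -0.47 on control diet, and its diet difference after DEN was -0.47. Muc13, a membrane mucin gene, had DEN differences of -0.11 and -0.37, and Fabp2, the intestinal fatty acid binding protein gene, of 0.27 and 0.29. The diet differences after DEN of Fabp2, Muc13 and Muc2 were 0.56, 0.23 and 0.54, and Muc2 was under the limit on all 4 arrays. Cdx1 and Cdx2, the transcription factor genes that define intestinal epithelium, were under the limit on all 4 arrays. The part of such cells in the Anxa13 difference was not tested.

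The sequence before the start sites of annexins that differed together with DEN is shown so that its motifs can be compared between them. RefSeq promoter windows (build GRCm38.p6) were at hand for 7 of the 10 annexins, not for Anxa3, Anxa6 and Anxa13. Anxa4 and Anxa7 had 2 windows each. Only the 1 nearest the start of the RefSeq gene was used, and the other is not shown. The 250 bases before the start are printed in gene orientation for the members at least 2-fold higher with DEN on control diet, and for Anxa7, which was not. Capitals mark matches on either strand to 5 motifs. TATAAA was searched as the binding motif of the basal transcription machinery (TATA box) and CCAAT as that of nuclear factor Y. GGGCGG was searched as the box bound by Sp1 and TGANTCA as the site of AP-1. TGACNNNGC was searched as the core of the antioxidant response element. No matches overlapped in these windows.
Anxa1 (chr19:20390672-20390921, minus strand): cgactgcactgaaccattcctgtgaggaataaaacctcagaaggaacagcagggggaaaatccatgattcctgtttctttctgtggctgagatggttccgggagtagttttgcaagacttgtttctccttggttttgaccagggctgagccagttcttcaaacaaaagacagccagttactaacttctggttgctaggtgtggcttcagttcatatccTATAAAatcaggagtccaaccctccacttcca
Anxa2 (chr9:69453433-69453682, plus strand): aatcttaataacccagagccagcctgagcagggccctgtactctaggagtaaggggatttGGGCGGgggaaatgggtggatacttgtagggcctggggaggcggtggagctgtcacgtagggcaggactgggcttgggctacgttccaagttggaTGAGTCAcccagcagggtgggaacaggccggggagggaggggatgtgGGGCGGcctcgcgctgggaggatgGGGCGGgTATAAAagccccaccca
Anxa4 (chr6:86793585-86793834, minus strand): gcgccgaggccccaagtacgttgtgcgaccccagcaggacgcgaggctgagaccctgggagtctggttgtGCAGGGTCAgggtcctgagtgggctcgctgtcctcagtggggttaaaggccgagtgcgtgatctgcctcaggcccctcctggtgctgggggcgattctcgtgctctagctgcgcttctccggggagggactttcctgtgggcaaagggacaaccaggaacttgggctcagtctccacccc
Anxa5 (chr3:36475888-36476137, minus strand): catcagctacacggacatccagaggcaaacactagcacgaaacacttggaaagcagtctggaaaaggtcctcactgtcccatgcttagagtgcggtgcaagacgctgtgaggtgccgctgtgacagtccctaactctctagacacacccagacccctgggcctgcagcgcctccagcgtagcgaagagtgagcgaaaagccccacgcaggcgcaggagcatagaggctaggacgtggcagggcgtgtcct
Anxa7 (chr14:20480134-20480383, minus strand): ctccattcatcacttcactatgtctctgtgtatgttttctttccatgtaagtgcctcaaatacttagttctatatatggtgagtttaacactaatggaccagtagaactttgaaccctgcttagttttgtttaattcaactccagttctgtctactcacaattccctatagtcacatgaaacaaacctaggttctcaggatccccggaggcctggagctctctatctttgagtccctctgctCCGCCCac

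Anxa2 had the most matches of the 5 windows, with 3 Sp1 boxes, 1 TATA box and 1 AP-1 site. The TATA box of Anxa2 lay 12 to 17 bases before the start. A TATA box also lay in the Anxa1 window, 27 to 32 bases before the start. The Anxa4 window held 1 antioxidant element core, the Anxa7 window 1 Sp1 box, and the Anxa5 window none of the 5 motifs. Over all 32851 promoter windows of this length, 12.4% held the TATA box, 33.8% the nuclear factor Y motif, 32.7% the Sp1 box, 6.75% the AP-1 site and 10.2% the antioxidant core. No motif was found in all 4 windows of the annexins that were higher with DEN. The share of G and C was 62.4% for Anxa2, 64.8% for Anxa4, 58.8% for Anxa5, 46% for Anxa1 and 42.4% for Anxa7, against a median of 52.4%. These matches are letters in a window and say nothing about binding.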

How the data were processed

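Liver RNA of 4 groups of mice was measured, each as 1 array of RNA pooled from 3 to 5 mice, so that the number of arrays limits the precision. The deposited values are log2 levels. Per the submitters' processing notes, the authors used RMA and Partek 6.5. RMA draws the distributions of the arrays together, so that a change of most genes in 1 direction would be lost, and its options are not stated there. Of 45101 probe sets, 34958 had 1 gene symbol in the platform annotation, 932 had several and 9211 none here. Array medians ran from 4.843 to 4.865. All 10 annexin symbols matched RefSeq GRCm38.p6. Differences of 2 arrays were computed with pandas 2.3.3 and numpy 2.4.6, with no test and no p-value, and the gene choice and counts were checked on simulated data. A fold against a level under 4.855 used 4.855 in its place and is written "at least". Named were all annexins, partner genes past 2-fold together with S100a10, Fpr2 and Ahnak, and the nearest genes (up to 3) of each annexin with a range of at least 1. The partner genes S100a11, Fpr1 and Fpr3 are not analysed here. Plg, Vil1, Krt20, Cdh17 and other markers were chosen after their values were seen. The members and lists were chosen with earlier results of these data known. Alternatives were a 1.5-fold threshold, quantile normalization, median centring, loess centring (fraction 0.3, statsmodels 0.14.6), the mean over probe sets, each probe set alone, low values raised to 4.855, and limits on the mean at 4.855 and at the upper quartile, 6.633.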

Additional observations from a re-analysis of the deposited data

Results flagged for a closer look

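A difference of opposite sign in the 2 backgrounds of the same contrast drew attention to 6 values, and none of these contrasts could be tested. For the CA diet against control diet, Anxa3 differed by -0.15 after DEN and 0.51 without DEN, Anxa4 by -0.054 and 0.28, Anxa5 by -0.22 and 0.01, and Anxa8 by 0.044 and -0.46. For DEN against no DEN, Anxa6 differed by -0.046 on CA diet and 0.13 on control diet, and Anxa7 by -0.10 and 0.17. Of these, only the values of Anxa3 and Anxa8 without DEN exceeded the largest difference of a hybridization control in their comparison (0.305), and Anxa8 was under the expression limit.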

How the results depend on the processing

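Counts of annexins at least 2-fold higher or lower, medians over the annexins and the median difference of the diet effects were recomputed under each alternative, and counts of partner genes with low levels raised to the limit. In 124 cases the value stayed within 1.5 times the count or within the spread of the hybridization controls, and 4 moved. The median for DEN on control diet was 0.77 with the mean over probe sets. The count for the CA diet after DEN was 0 at the upper quartile limit, because Anxa13 lies under it. With levels under 4.855 raised to it, the partner genes at least 2-fold higher with DEN numbered 3 on control diet and 2 on CA diet. That alternative was chosen after seeing the data. The 124 unmoved cases include counts of 0 that stayed 0, such as annexins at least 2-fold lower in every comparison. For counts, the limit on the mean at 4.855 removed only Anxa8, which reached 2-fold in no comparison. Such cases say nothing about how firm the counts above 0 are. Among single-gene differences of at least 2-fold, 2 changed sign: another probe set of Anxa2 gave -0.11 for DEN on control diet, and that of Anxa1 gave -0.0039 for DEN on CA diet. A further 40 single-gene values moved by more than the hybridization-control spread. Among smaller annexin differences, of at most 0.31 as deposited, the sign changed in 29 cases. No paired analysis was possible because each group has 1 array and the labels give no replicate numbers. An additive fit of DEN and diet, which would take their interaction as error, was not run.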

Other observations

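Anxa9 and Anxa10, annexins outside the set described above, were also named on the array. Anxa9 had levels of 4.96 and 5.56 in the DEN pools on CA and control diet, against 4.02 and 4.47 without DEN, with a 4-array mean of 4.75, under the expression limit. The CA diet pool minus the control diet pool was -0.61 after DEN and -0.46 without DEN, and the DEN difference was 0.94 on CA diet and 1.09 on control diet. With levels under the limit raised to it, the diet difference without DEN was 0, and the DEN differences were 0.10 on CA diet and 0.71 on control diet. Anxa10, an annexin of gastric epithelium, stayed between 2.64 and 2.90 on all 4 arrays, under the limit.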
